A study of Mus musculus with 21 samples.

Results

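Expression was compared between sciatic nerves of 4-day-old Trembler mice and of wild-type mice of the same age, on 3 arrays each. They are 6 of the 21 arrays of a study of mouse Pmp22 neuropathies, chosen by the genotype and age in their titles, and every probe set other than the array's control sequences was used. The P4 TR group carries the Trembler point mutation in Pmp22, and the P4 WT group is wild type on a mixed background. Further groups serve here only for comparison. They are P4 KO (homozygous Pmp22 null, 3 arrays), P4 TG (carrying a Pmp22 transgene, 3 arrays), P60 TR (60-day-old Trembler, 2 arrays) and P60 WT (60-day-old wild type, 3 arrays). Each array holds RNA from the pooled nerves of 4 to 7 mice, amplified by in vitro transcription in repeated rounds. The labels give neither sex nor litter, so the p-values below measure the spread between pools, and 3 pools a group limit the precision.

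Pmp22 encodes a small membrane glycoprotein of compact myelin, the lipid-rich sheath that Schwann cells wrap around axons. In the days after birth Schwann cells of the sciatic nerve sort axons and begin to myelinate, which requires large amounts of cholesterol and fatty acids, much of it made in the Schwann cell itself. Trembler mice carry a dominant amino acid change in a membrane-spanning part of the protein, which is retained inside the cell, and their nerves are poorly myelinated. Misfolded proteins are handled by chaperones such as the heat shock proteins and by the proteasome, the complex that degrades proteins tagged with ubiquitin.

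Values are the expression index that the authors computed from each probe set's intensities, and differences are log2 changes, P4 TR minus P4 WT, given with their standard error. Indices below a floor of 54.7 were raised to it before the log2 was taken, and values printed below it are as deposited. A probe set was called when its Benjamini-Hochberg adjusted p from limma, over all 10994 probe sets tested, was at most 0.05. Median indices were 196, 181 and 197 in the P4 TR pools and 192, 184 and 189.8 in the P4 WT pools. Across the 6 arrays the first principal component carried 42.7% of the variance and did not separate the genotypes. The second carried 23.8%, with all 3 P4 TR pools, at -16.8, -13.3 and -8.90, below the P4 WT pools, at -3.08, 23.2 and 18.9. The 6 arrays were scanned on 5 days, and TR pool 2 and WT pool 2 shared a day. In whole nerve, fewer cells of a type and less RNA per cell cannot be told apart.

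Pmp22 has a pair of probe sets on this array. The bright one read 6779, 7383 and 5875 in the P4 TR pools and 6840, 7682 and 7093 in the P4 WT pools, a log2 difference of -0.11 ± 0.11 (adjusted p = 1 by limma). The dim one read 61.3, 60.5 and 49.5 in P4 TR, against 97.4, 106 and 104 in P4 WT. Its groups did not overlap, but its difference of -0.80 ± 0.20 missed the threshold (adjusted p = 0.142 by limma). The part of the transcript that each covers is not known here, and a point mutation leaves the transcript in place, so neither value checks the genotype. In the groups used for comparison, the bright probe set averaged 5131 ± 292 in P4 KO and 6695 ± 99.7 in P4 TG, against 7205 ± 432 in P4 WT (SD, n = 3 each). The libraries labelled null thus held Pmp22 signal not far below wild type (-0.49, adjusted p = 0.0605 by limma), and those labelled transgenic were not above it (-0.10, adjusted p = 0.997). Whether the null allele or the transgene would alter this probe set's signal is not known here, and the comparisons with these groups rest on the labels. The dim probe set averaged 38.9 ± 1.14 in P4 KO and 88.1 ± 31.0 in P4 TG, against 102 ± 4.45 in P4 WT (SD, n = 3 each).

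Of the 10994 probe sets, 48 were called (0.437%), 10 higher (0.091%) and 38 lower (0.346%) in P4 TR nerve. In all 48 the P4 TR and P4 WT arrays did not overlap, as was the case for 9.88% of all probe sets. Differences within the shared scan day are printed beside the genes below, and their signs follow from the lack of overlap. The 43 called probe sets with a single gene symbol name 38 genes, 9 higher and 29 lower. With 1 probe set per gene, the brightest, 9 of 7703 genes were higher (0.117%) and 26 were lower (0.338%). At these shares most lists of the sizes used below would hold no call, so a list without calls is no result about its genes. The higher genes were led by chaperones, and 16 of the 29 lower genes belong to lists of cholesterol, fatty acid and myelin lipid synthesis. Of the 7703 genes, the cholesterol list holds 16 and the list of fatty acid and myelin lipid synthesis also 16. The number of calls varied with the arrays in the fit. It was 19, 16 and 80 without TR pool 1, 2 or 3, 31, 36 and 26 without WT pool 1, 2 or 3, 6 when the other groups were left out of the fit, and 16 (9 higher, 7 lower) after blocking on scan day. Of those 16, 6 were among the 48, and 37 of the 43 probe sets with a single symbol lost their call under that block. Hspa1a, Hspa1b, Hsp90aa1, Rprm, Ogn and Fdps kept it. Under that block the difference is that of TR pool 2 and WT pool 2 alone. TR pools 1 and 3 shared a scan day with no other array. The block thus repeats the difference within the shared scan day and is no check over all pools.

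Among the heat shock genes, Hspa1a had the largest difference of all probe sets called. Hspa1a and Hspa1b encode the stress-inducible HSP70 chaperones. Hspa1a had an index of 1933, 1242 and 1990.1 in the P4 TR pools, against 71.0, 73.9 and 92.0 in the P4 WT pools, a log2 change of 4.42 ± 0.24 (adjusted p = 9.24e-09 by limma). All 3 P4 TR pools lay far above the highest P4 WT pool. Hspa1b read 4382, 4338 and 4389 in P4 TR and 365, 450.0 and 334 in P4 WT, and rose by 3.52 ± 0.23 (adjusted p = 1.06e-07 by limma). The 3 P4 TR pools differed by far less among themselves than from the P4 WT pools. Within the shared scan day the differences were 4.07 for Hspa1a and 3.27 for Hspa1b.

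These genes are near-identical neighbours on chromosome 17, so their probe sets can share signal, and the values cannot be assigned to 1 copy with certainty. Their promoters are shown to make the likeness visible. Both are the 250 bases before the annotated start, read 5′ to 3′ on the minus strand of GRCm38.p6 from RefSeq, at chr17:34972157-34972406 for Hspa1a and chr17:34959239-34959488 for Hspa1b. Capitals mark the 3 of 250 bases that differ.
Hspa1a: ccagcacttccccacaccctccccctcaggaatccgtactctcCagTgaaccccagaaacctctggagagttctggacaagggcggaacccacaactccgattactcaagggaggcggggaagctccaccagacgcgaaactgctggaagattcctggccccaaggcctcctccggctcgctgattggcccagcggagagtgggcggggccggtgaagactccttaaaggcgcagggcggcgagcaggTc
Hspa1b: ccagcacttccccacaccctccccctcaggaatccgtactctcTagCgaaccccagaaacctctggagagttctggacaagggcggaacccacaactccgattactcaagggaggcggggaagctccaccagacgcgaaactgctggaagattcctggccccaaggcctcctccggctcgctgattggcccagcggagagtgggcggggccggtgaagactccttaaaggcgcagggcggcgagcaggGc

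A pair of further chaperone genes was called. Hsp90aa1, the inducible cytosolic HSP90, read 4332, 4617 and 4480 in the P4 TR pools and 2171, 1846 and 2106 in the P4 WT pools. It rose by 1.14 ± 0.14 on the log2 scale (adjusted p = 0.000671 by limma), with a difference of 1.32 within the shared scan day. A dim Hsp90aa1 probe set, partly at the floor in both groups, overlapped between them and was not called (0.03). Hsph1, the HSP105 partner that exchanges the nucleotide of HSP70, read 1256, 909 and 1301 in P4 TR and 613, 529 and 599.7 in P4 WT. It rose by 0.98 ± 0.16 (adjusted p = 0.00933 by limma), and missed the threshold without TR pool 1 (adjusted p = 0.0708).

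A heat shock element was searched in the promoter windows of RefSeq, 250 bases before to 50 after each annotated start. The element was written as 3 alternating GAA and TTC units with NN between them, on both strands. It was found in 0.603% of all 32851 windows, in 0.662% of genes, and in 4 of the 27 heat shock genes with a window (Chordc1, Hspd1, Hspe1 and Hsph1). Hsph1 was the only called gene with it. There its first base lies after the start, at position 37 or 16 depending on the annotated start. The stretch is at chr5:149636280-149636308 on the minus strand of GRCm38.p6, and capitals mark the element.
Hsph1: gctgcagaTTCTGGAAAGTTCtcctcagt
The strict form is not in the Hspa1a and Hspa1b windows.

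Of the 33 measured genes of the heat shock list, 4 rose (the 4 above), against 0.117% of all 7703 genes, and none fell. The median change was 0.45, against 0.02 over all genes. The sign was positive in 31 of the 33, against 4107 of all 7703 genes. In 15 of the 33 (45.5%) the pools did not overlap, against 9.88% of all probe sets. This list and those below were chosen with earlier results of these data known. Their shares are therefore description and no independent support. The values of the other heat shock genes were smaller and none passed. The HSP40 co-chaperone gene Dnajb1 had a change of 0.65 (adjusted p = 0.144 by limma) and Hspd1, the mitochondrial HSP60, one of 0.62 (adjusted p = 0.183 by limma). Chordc1, an HSP90 co-chaperone, had 0.87 (adjusted p = 0.547), Hspa8, the constitutive HSP70, 0.46 (adjusted p = 0.69), and Bag3, which links HSP70 to autophagy, 0.51. The subunit genes of the cytosolic chaperonin, which folds actin and tubulin, lay between 0.05 for Cct2 and 0.68 for Cct3. Cct6a was at 0.65 (adjusted p = 0.503). Among the cofactors and organelle chaperones, Dnaja1 had 0.47, Hspe1 0.53, Hspa4l 0.42, Hspa9 0.33, St13 0.26, Dnaja2 0.24 and Stip1 0.23. The small heat shock genes were near 0, with Hspb8 at 0.18, Hspb1 at 0.01 and Cryab at -0.25. Serpinh1, the collagen chaperone, was at 0.19, Hspa2 at 0.12, the transcription factor gene Hsf2 at 0.11, Hspa1l at 0.06, Fkbp4 at 0.05 and Hspa4 at -0.05.

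**Figure D1:**
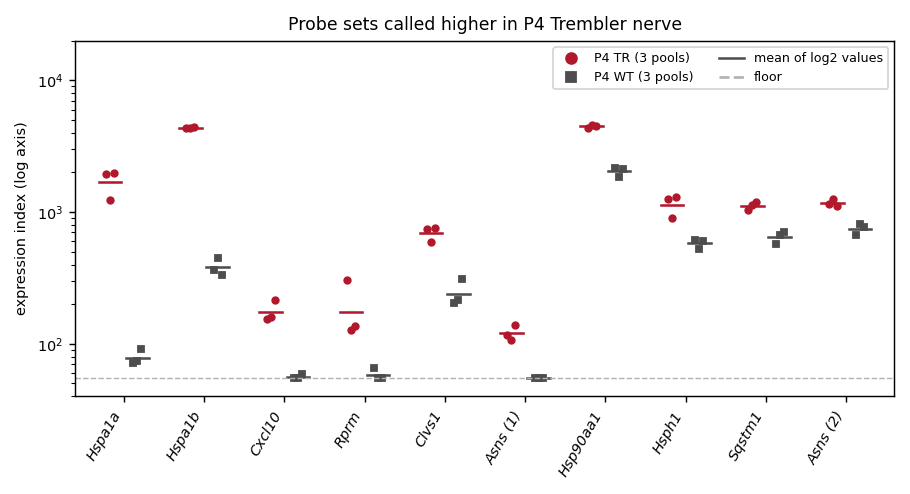
Expression index (log axis) of the 10 probe sets called higher, with P4 TR pools as circles left of P4 WT pools as squares; the bars are means of the log2 values and the dashed line is the floor of 54.7. No P4 TR pool falls within the range of the P4 WT pools, and 2 of the 3 P4 WT pools are at the floor for Cxcl10, for Rprm and for the first of the Asns probe sets.

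The other 5 higher genes have different roles. Sqstm1 encodes p62, the receptor that carries ubiquitin-tagged proteins to autophagy. It read 1042, 1126 and 1196 in the P4 TR pools and 575, 667 and 711 in the P4 WT pools, and rose by 0.79 ± 0.13 (adjusted p = 0.00999 by limma). It lost the call without TR pool 2 or without WT pool 1 (adjusted p = 0.0593 at most). Cxcl10, a chemokine that draws T cells, read 154, 159 and 213 in P4 TR, against 40.2, 50.1 and 59.1 in P4 WT, with 2 of the 3 P4 WT pools at the floor. It rose by 1.63 ± 0.16 (adjusted p = 2.67e-05 by limma). Rprm, a p53 target that halts the cell cycle, read 304, 127 and 137 in P4 TR and 65.3, 32.5 and 54.1 in P4 WT, and rose by 1.58 ± 0.22 (adjusted p = 0.00207 by limma). With the floor at the 30th percentile of all values its change was 0.98 (adjusted p = 0.0553), and with P4 arrays only its adjusted p was 0.078. The other Rprm probe set, at 0.19, was not called. Clvs1, a lipid-binding protein of clathrin-coated vesicles, read 739, 597 and 758 in P4 TR and 204, 214 and 308 in P4 WT. It rose by 1.54 ± 0.31 (adjusted p = 0.0316 by limma).

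Asns encodes asparagine synthetase, a standard target of the amino acid response. Its bright probe set read 1151, 1259.6 and 1119.5 in the P4 TR pools and 674, 809 and 765 in the P4 WT pools, and rose by 0.65 ± 0.12 (adjusted p = 0.0143 by limma). Its dim probe set read 117, 108 and 139 in P4 TR, against 54.9, 53.3 and 54.5 in P4 WT, and rose by 1.14 ± 0.16 (adjusted p = 0.00207 by limma), although 2 of the P4 WT values were at the floor. With the floor at the 30th percentile of all values that change was 0.45 (adjusted p = 0.155). The amino acid response element TGATGNAA, searched on both strands, is in the Asns window, with its first base at position -23 from the start, and in 3.97% of all windows and 4.51% of genes. The stretch below is at chr6:7693217-7693292 on the minus strand of GRCm38.p6, with the element in capitals.
Asns: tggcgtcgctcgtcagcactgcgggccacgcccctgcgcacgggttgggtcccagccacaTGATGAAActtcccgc
The element is in 7 of the 21 genes of the amino acid and integrated stress response list that have a window. Of the 26 measured genes of that list Asns alone was called. The list's median change was 0.10, and the amino acid transporter gene Slc7a5 had 0.57 (adjusted p = 0.263 by limma).

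Neither of the other protein quality lists was called beyond Sqstm1. Of 33 measured proteasome and ubiquitin genes, 1 rose, against 0.117% of all genes, and none fell. The median change was 0.46, against 0.02 over all genes. In that list 31 of 33 had a positive sign, against 4107 of all 7703 genes. The pools did not overlap in 18 (54.5%), against 9.88% of all probe sets. The proteasome subunit gene Psmd14 had 0.72 (adjusted p = 0.0956 by limma), Psma1 0.97 (adjusted p = 0.137) and Psmc6 0.57 (adjusted p = 0.264). None of 22 measured genes of endoplasmic reticulum stress was called, the median was 0.01, and the smallest adjusted p was 0.716. Manf, a secreted factor of that response, was at -0.44, Pdia6, a disulfide isomerase, at 0.68 and Xbp1, its transcription factor, at -0.39. None of 24 measured lysosome and autophagy genes was called (median -0.03). With 0.117% of all genes called higher and 0.338% lower, a lack of calls in lists this small says little about them.

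The lipid synthesis genes were lower in P4 TR nerve. Of the 16 measured genes of cholesterol biosynthesis, 10 fell and none rose by their brightest probe set, where 0.338% of all genes fell. By any probe set 12 fell. The median change was -1.07, against 0.02 over all genes. All 16 had a negative sign, against 3593 of all 7703 genes. In 13 (81.2%) the pools did not overlap, against 9.88% of all probe sets. The list was chosen with earlier results of these data known, so these shares are description and no independent support. The median was -1.26, -1.29 and -1.03 in the 3 P4 TR pools, each set against the P4 WT mean, and -1.18 within the shared scan day. The count depended on the arrays in the fit, and a scan-day block rests on pool 2 of each group alone. It was 2 without TR pool 1 or TR pool 2, 3 without WT pool 3 and 5 without WT pool 1. It was 1 when the other groups were left out and 0 after blocking on scan day. The list's median lay between -1.25 and -1.04 in all 23 settings. Several of these, such as leaving out the other groups, alter only the estimated spread and cannot move the median.

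In the first steps, from acetyl units to isoprenoids, Hmgcs1 encodes the synthase that forms HMG-CoA. It read 1049, 1124 and 1189.8 in the P4 TR pools, against 3604, 3466 and 3690 in the P4 WT pools, and fell by 1.68 on the log2 scale (SE 0.25, adjusted p = 0.0036 by limma). Within the shared scan day its difference was -1.62. The sterol regulatory element TCACNCCAC, searched on both strands, is in the Hmgcs1 window, and in 1.24% of all windows and 1.44% of genes. Hmgcs1 is the only one of the 13 cholesterol genes with a window, and the only called gene, that holds it. The stretch below is at chr13:119690164-119690282 on the plus strand of GRCm38.p6 from RefSeq, with the element in capitals.
Hmgcs1: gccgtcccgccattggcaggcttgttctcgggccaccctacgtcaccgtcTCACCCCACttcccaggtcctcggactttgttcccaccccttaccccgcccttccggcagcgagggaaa
Idi1, the isomerase that supplies both isoprenoid building blocks, read 1437, 1425 and 1801 in P4 TR and 3891, 3553 and 3740.5 in P4 WT. It fell by 1.27 (SE 0.18, adjusted p = 0.00207 by limma), and by 1.32 within the shared scan day. Its window holds the amino acid response element at position -181.

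Mvk, Mvd and Fdps, the kinase, decarboxylase and farnesyl diphosphate synthase of the same steps, were less clear. The Mvk probe set with the higher mean over all arrays read 206, 292 and 183 in the P4 TR pools and 243, 320.0 and 226 in the P4 WT pools (-0.22, adjusted p = 1 by limma). The other, which was the brighter one in P4 WT, read 88.2, 114 and 159 in the P4 TR pools and 287, 304 and 493 in the P4 WT pools and was called (-1.58 ± 0.29, adjusted p = 0.0181 by limma), so the probe sets of this gene disagree. Mvd read 272, 269 and 207 in P4 TR and 446, 434 and 411 in P4 WT, without overlap, but missed the threshold (-0.80 ± 0.21, adjusted p = 0.153 by limma). The bright Fdps probe set read 1065, 1156 and 888 in P4 TR and 2407, 3139 and 3074 in P4 WT and also missed it (-1.47 ± 0.49, adjusted p = 0.388 by limma). A dimmer one read 423, 422 and 371 in P4 TR, against 1246, 1517 and 1455 in P4 WT, and was called (-1.79 ± 0.38, adjusted p = 0.042 by limma). That call was lost without each of the 6 arrays in turn and with the replicate number as a block. A further dim Fdps probe set had the opposite sign, at 0.28.

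The steps from squalene to lanosterol fell as a run of neighbours in the pathway. Fdft1, squalene synthase, read 540.0, 481 and 686 in the P4 TR pools and 1176, 1059 and 1286 in the P4 WT pools (-1.06 ± 0.22, adjusted p = 0.042 by limma). Sqle, the epoxidase that is one of the pathway's rate-limiting enzymes, read 609.5, 711 and 1096 in P4 TR and 1399, 1664 and 1812 in P4 WT (-1.05 ± 0.19, adjusted p = 0.0163 by limma). Lss, the cyclase that forms lanosterol, read 260.3, 267 and 271 in P4 TR and 797, 512 and 443 in P4 WT (-1.09 ± 0.19, adjusted p = 0.0142 by limma). No pool of either group crossed into the other for these 3 genes, and the P4 WT pools of Lss spread more widely than its P4 TR pools.

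Among the enzymes that turn lanosterol into cholesterol, 5 fell. Cyp51, the demethylase, read 535, 447 and 627 in the P4 TR pools and 1967, 921 and 1344 in the P4 WT pools (-1.34 ± 0.28, adjusted p = 0.0445 by limma), and was not called with the replicate number as a block. Msmo1, the methylsterol oxidase, read 1162, 1167 and 1658 in P4 TR and 2547, 2750.2 and 2655 in P4 WT (-1.02 ± 0.18, adjusted p = 0.0135 by limma). Nsdhl, the sterol dehydrogenase, was called by 2 of its 3 probe sets. The brightest read 235, 245 and 317 in P4 TR and 699.6, 684 and 783 in P4 WT (-1.45 ± 0.26, adjusted p = 0.0132 by limma), and a dimmer one changed by -1.74 ± 0.25 (adjusted p = 0.00215). The remaining one, at -1.63, missed the threshold (adjusted p = 0.0628). Ebp, the sterol isomerase, read 207, 166 and 289 in P4 TR and 680.0, 432 and 683 in P4 WT (-1.45 ± 0.26, adjusted p = 0.0163 by limma). Sc5d, the desaturase, was also called by both probe sets, one at -1.54 ± 0.29 (adjusted p = 0.019) and one at -1.44 ± 0.28 (adjusted p = 0.0313), with P4 TR pools partly at the floor. With the floor at the 30th percentile of all values both calls were lost, at -0.94 and -0.85 (adjusted p = 0.174 and 0.259), and the second was also lost with it at the 10th (adjusted p = 0.071). The remaining 3 genes were not called. Hsd17b7 read 221, 107 and 257 in P4 TR and 508, 302 and 285 in P4 WT (-0.95 ± 0.37, adjusted p = 0.551 by limma), while Tm7sf2 was at -0.15 and Dhcr7 at -0.02 (adjusted p = 1 for both).

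**Figure D2:**
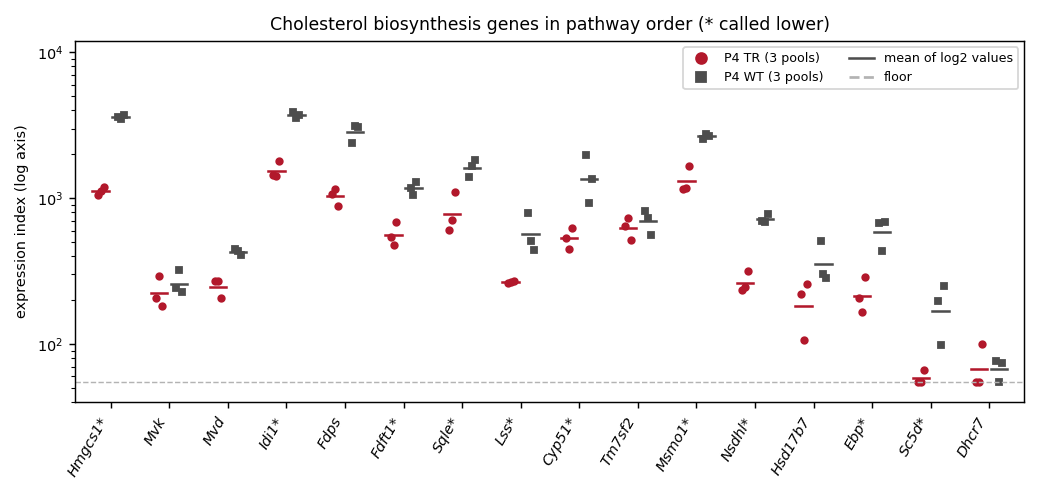
Expression index (log axis) of the brightest probe set of each of the 16 measured cholesterol biosynthesis genes in pathway order, with P4 TR pools as circles left of P4 WT pools as squares; bars are means of the log2 values, asterisks mark the 10 called genes and the dashed line is the floor. The P4 TR pools lie below the P4 WT pools without overlap in 13 genes, and mix with them for Mvk, Tm7sf2 and Dhcr7.

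The regulators and carriers around the pathway were measured too. None of the 9 measured genes of sterol sensing, uptake and efflux was called, where 0.338% of all genes fell. Their median change was -0.04 (smallest adjusted p = 0.702 by limma). Of the 16 measured genes of fatty acid and myelin lipid synthesis, 4 fell, against 0.338% of all genes, and none rose, with a median of -0.51. The pools did not overlap in 10 of the 16, against 9.88% of all probe sets. Scd1 encodes the desaturase that makes monounsaturated fatty acids. It read 1972, 1779 and 1705 in the P4 TR pools, against 4711, 4971 and 4555 in the P4 WT pools (-1.39 ± 0.13, adjusted p = 2.67e-05 by limma), and a dimmer probe set changed by -1.59 ± 0.23 (adjusted p = 0.00269). The dimmest of its 3 probe sets overlapped between the groups, at -0.32 (adjusted p = 1). Elovl6, the elongase that lengthens palmitate, read 1434, 1129.6 and 1314 in P4 TR and 2780.2, 2729.6 and 3174 in P4 WT (-1.17 ± 0.18, adjusted p = 0.0036 by limma). Its dimmer probe set changed by -1.62 ± 0.27 (adjusted p = 0.00997). In both genes the pools of each group lay close together.

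Fasn, the fatty acid synthase, read 864, 622 and 1031 in the P4 TR pools and 1554, 1801 and 1894 in the P4 WT pools (-1.09 ± 0.21, adjusted p = 0.0237 by limma). Degs1, the desaturase that completes ceramide, had the smallest called change. It read 2690.0, 2452 and 3012 in P4 TR and 3599, 3814 and 4378 in P4 WT (-0.53 ± 0.11, adjusted p = 0.042 by limma), and was not called with the replicate number as a block. Cers2, the ceramide synthase for very long chains, at -0.80 (adjusted p = 0.0956), Acly, which makes acetyl-CoA from citrate, at -0.81 (adjusted p = 0.233), and Fads1, a polyunsaturated fatty acid desaturase, at -0.75 (adjusted p = 0.344), did not pass. Outside the lists, Hsd17b12, an enzyme of fatty acid elongation, read 1176, 1156 and 1298 in P4 TR and 2108, 1924 and 2029 in P4 WT (-0.74 ± 0.15, adjusted p = 0.0394 by limma). Rdh11, a retinol dehydrogenase, changed by -0.72 ± 0.15 (adjusted p = 0.0394), a call lost with the replicate number as a block.

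Myelin and node proteins were tested in the same arrays. None of the 9 measured genes was called, where 0.338% of all genes fell. Their median change was -0.36, and in 5 (55.6%) the pools did not overlap, against 9.88% of all probe sets. Mbp, myelin basic protein, read 4222, 4808 and 4272 in the P4 TR pools and 5531, 5950.3 and 5545 in the P4 WT pools (-0.36 ± 0.12, adjusted p = 0.353 by limma). Mag, the adhesion protein at the inner face of the sheath, read 317, 240.4 and 512 in P4 TR and 592, 565 and 646 in P4 WT (-0.82 ± 0.32, adjusted p = 0.549 by limma). Both genes were lower in each P4 TR pool than in any P4 WT pool, by amounts that missed the threshold, although a dimmer Mag probe set overlapped, with 251, 293 and 261 in P4 TR and 244, 289 and 313 in P4 WT. Cd9, a tetraspanin, was at -0.49, Mal, a raft protein, at -0.45, Gjb1, the connexin 32 of Schwann cells, at -0.12 and Cntnap1, of the axonal paranode, at -0.05. The Pmp22 relatives Emp2, Emp3 and Emp1 were at -0.89, -0.24 and 0.18.

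Of the genes that mark Schwann cell states, S100b and Gdf5 fell. S100b, a calcium-binding protein used as a Schwann cell marker, read 222, 145 and 215 in the P4 TR pools and 673, 733 and 895 in the P4 WT pools (-2.0 ± 0.27, adjusted p = 0.00193 by limma). Its difference within the shared scan day was -2.34. Gdf5, a growth factor of the bone morphogenetic protein family, read 31.3, 114 and 108 in P4 TR and 654, 408 and 264 in P4 WT (-2.24 ± 0.39, adjusted p = 0.0132 by limma), with 1 P4 TR pool at the floor. With the floor at the 10th percentile of all values Gdf5 missed the threshold (adjusted p = 0.124). No other of the 20 measured genes on the list of immature, non-myelinating and injured Schwann cells was called, and its median was 0.07. None of 21 measured Schwann cell transcription regulators was called (median 0.18). As a check of the labelled tissue, Egr2, the master regulator of myelination also called Krox20, read 3781, 3330 and 4159 in P4 TR and 3571, 2838 and 3567 in P4 WT. Sox10, the transcription factor that defines the Schwann cell lineage, read 1121, 641 and 1130 in P4 TR and 964, 826 and 962 in P4 WT. Both were well above the floor in every pool, as were Mbp, Mag and S100b. Egr1, an immediate early transcription factor, had 0.73 (adjusted p = 0.151 by limma), Id2, an inhibitor of differentiation, 0.52 (adjusted p = 0.182) and Hdac1, a histone deacetylase, 0.51 (adjusted p = 0.33).

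A further 9 genes fell that are on none of the lists of lipid synthesis or of Schwann cell states. Ogn, a small proteoglycan of the extracellular matrix, read 1981, 799 and 1021 in the P4 TR pools and 4055, 3325 and 2992 in the P4 WT pools (-1.55 ± 0.27, adjusted p = 0.013 by limma). Gpr37l1, an orphan receptor of glial cells, read 348, 286 and 367 in P4 TR and 1065, 879 and 969 in P4 WT (-1.54 ± 0.26, adjusted p = 0.00933 by limma). Mme, the membrane peptidase neprilysin, read 74.2, 79.6 and 78.5 in P4 TR and 222, 207 and 199 in P4 WT (-1.43 ± 0.21, adjusted p = 0.00329 by limma). These 3 genes were well separated between the groups, most tightly Mme. Kcnk1, a potassium leak channel, read 477, 474 and 523 in P4 TR and 1287, 947 and 1135 in P4 WT (-1.18 ± 0.21, adjusted p = 0.0132 by limma). Zdhhc9, a palmitoyltransferase, read 215, 166 and 172 in P4 TR and 301, 495 and 636 in P4 WT (-1.32 ± 0.25, adjusted p = 0.0237 by limma). Its P4 WT pools were the most spread. Wdfy2, an endosomal adaptor, changed by -0.96 ± 0.18 (adjusted p = 0.0204), Evi5, a regulator of Rab GTPases, by -0.75 ± 0.15 (adjusted p = 0.0316) and Mterf2, of the mitochondrial transcription termination family, by -0.89 ± 0.19 (adjusted p = 0.042). Mea1 was called by a dim probe set at -0.73 ± 0.13 (adjusted p = 0.0132), while its bright probe set was at 0.07 and not called. With the floor at the 30th percentile of all values the dim Mea1 probe set was at -0.13 (adjusted p = 0.713) and Mterf2 at -0.29 (adjusted p = 0.863).

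Without any 1 of the 6 arrays none of the 43 named probe sets changed sign, which follows from the lack of overlap between the groups. In every such fit 14 of the 43 passed. Among the higher ones these were Hspa1a, Hspa1b, Hsp90aa1, Cxcl10, Rprm and the dim Asns probe set. Among the lower ones they were the brighter 2 Scd1 probe sets, the bright Elovl6 one, Hmgcs1, Idi1, 1 Nsdhl one, Mme and S100b. The other 29 missed the threshold without at least 1 array, with highest adjusted p between 0.0593 and 0.257. The numbers that missed it were 27 without TR pool 2, 25 without TR pool 1, 4 without TR pool 3, and 19, 12 and 21 without WT pools 1, 2 and 3. Clvs1 passed without WT pool 3 and in none of the other 5 such fits (adjusted p = 0.144 at most), and the bright Asns probe set missed in 4 of the 6 (adjusted p = 0.103 at most).

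The other cell types of the nerve were followed through their marker lists. Over all genes 0.117% were called higher and 0.338% lower, so a lack of calls in lists this small says little about a cell type. None was called in the lists for macrophages (23 measured, median -0.07), T and B lymphocytes (14, median 0.04), mast cells (8, median 0.07), endothelium (12, median -0.16), smooth muscle and pericytes (10, median 0.05), fibroblasts, perineurium and matrix (37, median -0.05), adipocytes (13, median 0.00) or neurons and axons (15, median 0.20). The summed index of the macrophage markers was 5157, 4758 and 5345 in the P4 TR pools and 5282, 5336 and 5254 in the P4 WT pools. Skeletal muscle markers differed more between pools than between genotypes, with sums of 14894, 13543 and 8607 in P4 TR and 10986, 25692 and 8254 in P4 WT (26 measured, none called, median -0.10). Erythroid and blood markers likewise summed to 16388, 11568 and 7208 in P4 TR and 15673, 10161 and 7182 in P4 WT (12 measured, none called, median 0.08). The part of muscle and blood RNA in the results above was not tested.

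The pools also differed in sex-linked genes. Eif2s3y, a Y-linked gene, read 27.7, 3.71 and 23.4 in the P4 TR pools, all below the floor, and 132, -1.89 and 112 in the P4 WT pools, 2 of them above it. Xist, the RNA that silences an X chromosome in female cells, read 1111, 1192 and 942 in P4 TR and 519.8, 1003 and 503 in P4 WT. WT pool 2 was thus like the P4 TR pools in both genes, and it is also the P4 WT pool that shares a scan day with TR pool 2. The part of sex-linked differences between the pools in the results above was not tested.

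Lists of general processes held few calls. In the cell cycle list Rprm rose, none of the 52 measured genes fell, and the median was 0.29. The sign was positive in 46 of 52 genes, against 4107 of all 7703. The pools did not overlap in 11 of the 52, against 9.88% of all probe sets. Ccnd1, cyclin D1, had 0.75 (adjusted p = 0.17 by limma). Against P4 WT the median of this list was 0.57 in P4 KO and 0.38 in P4 TG. In the list of interferon response and antigen presentation Cxcl10 was the only one of 30 measured genes called (median -0.02). None of 25 measured immediate early genes was called (median 0.08), where 0.117% of all genes rose and 0.338% fell.

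**Figure D3:**
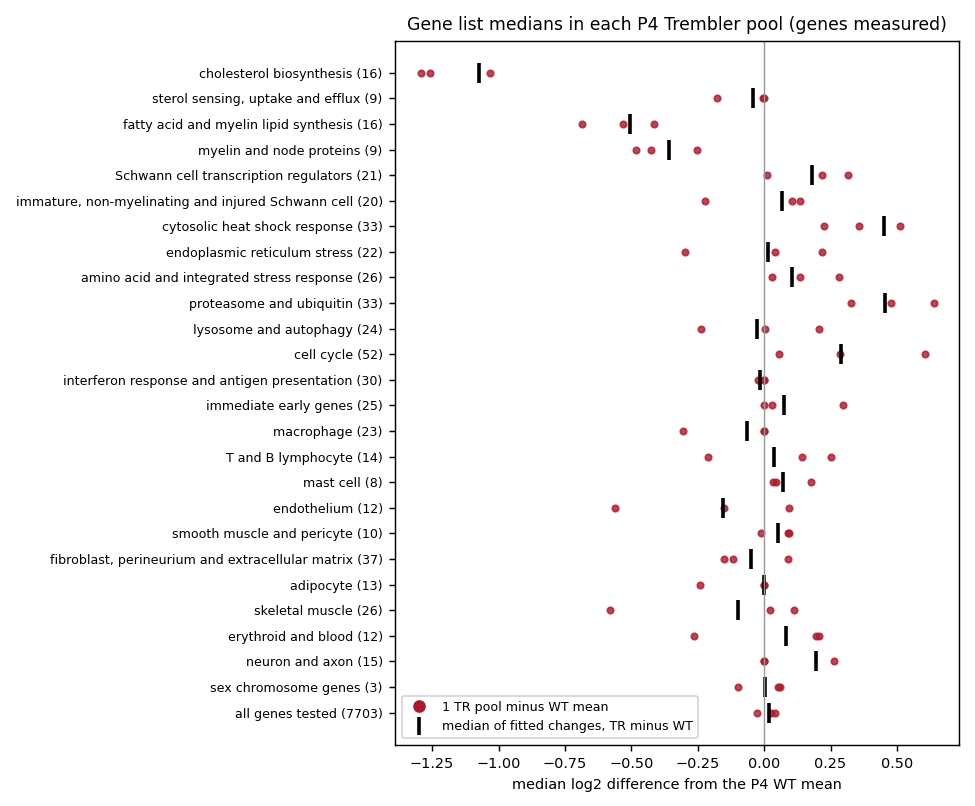
Median log2 difference of each gene list from the P4 WT mean in each of the 3 P4 TR pools (points), with the median of the fitted changes, P4 TR minus P4 WT (black bars), and the number of measured genes in parentheses. Cholesterol biosynthesis lies lowest, with pools from -1.29 to -1.03 and a median of -1.07, while heat shock (0.45) and proteasome (0.46) lie highest and all genes at 0.02.

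The next question was how P4 TR nerve differs from nerve of the other Pmp22 mutants of the same age. Set directly against P4 KO, 45 probe sets were called (0.409%), 28 higher and 17 lower in P4 TR, and against P4 TG 16 were called (0.146%), 13 higher and 3 lower (23 and 11 after quantile scaling). All 10 probe sets called higher against P4 WT were also called against P4 KO, and 9 of them against P4 TG. The exception was Hsph1, at 0.74 against P4 TG (adjusted p = 0.0892 by limma). Of the 38 probe sets called lower against P4 WT, 2 were called against P4 KO and none against P4 TG. The genes were chosen on the same P4 TR arrays, so these counts are not independent of that choice. No P4 TR array shared a scan day with a P4 KO or P4 TG array. Under a scan-day block P4 TR is therefore linked to them by TR pool 2 alone, through other groups. Blocking on scan day gave 6 calls against P4 KO, 3 of them among the 45, and 3 against P4 TG, 0 of them among the 16, and with the replicate number as a block there were 50 and 30.

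Hspa1a averaged 1722 ± 417 in P4 TR nerve, 85.6 ± 11.2 in P4 KO, 87.2 ± 9.04 in P4 TG and 79.0 ± 11.4 in P4 WT (SD, n = 3 each). The direct log2 differences were 4.31 ± 0.24 against P4 KO (adjusted p = 1.43e-08 by limma) and 4.28 ± 0.24 against P4 TG (adjusted p = 1.6e-08). Hspa1b averaged 4370 ± 27.4 in P4 TR, 439 ± 132 in P4 KO, 413 ± 119 in P4 TG and 383 ± 59.9 in P4 WT (SD, n = 3 each). The inducible HSP70 genes were thus near the P4 WT level in both other mutants. The heat shock list as a whole was near the P4 WT level in P4 TG but not in P4 KO. Its median change against P4 WT was 0.45 in P4 TR, 0.37 in P4 KO and 0.01 in P4 TG, and the direct medians were 0.15 for P4 TR minus P4 KO and 0.32 for P4 TR minus P4 TG. Hsp90aa1 was intermediate in P4 KO, at 2812 ± 98.3, against 4476 ± 142 in P4 TR, 2384 ± 447 in P4 TG and 2041 ± 172 in P4 WT (SD, n = 3 each). It differed by 0.67 ± 0.14 between P4 TR and P4 KO (adjusted p = 0.0432 by limma), a call lost without any 1 of 5 of the 6 arrays, and by 0.93 ± 0.14 between P4 TR and P4 TG (adjusted p = 0.00536).

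Sqstm1, Cxcl10, Rprm and Clvs1 were higher in P4 TR than in both other mutants, also without any 1 of the 6 arrays compared. Sqstm1 differed by 0.92 from P4 KO (adjusted p = 0.00166 by limma) and by 1.0 from P4 TG (adjusted p = 0.00123). Cxcl10 differed by 1.32 from P4 KO (adjusted p = 0.000198) and by 1.38 from P4 TG (adjusted p = 0.000261). Clvs1 also had lower means in both other mutants than in wild type, called for P4 TG only. It averaged 698 ± 88.2 in P4 TR, 123 ± 42.3 in P4 KO, 85.6 ± 18.1 in P4 TG and 242 ± 57.4 in P4 WT (SD, n = 3 each). Its log2 change against P4 WT was -1.0 in P4 KO (adjusted p = 0.24 by limma) and -1.50 in P4 TG (adjusted p = 0.031), and P4 TR exceeded P4 KO by 2.55 and P4 TG by 3.04. With scan day as a fixed block only Hspa1a against P4 KO kept its call among the higher genes.

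The lipid genes did not separate Trembler from the other mutants by these tests. None of the 16 cholesterol genes was called in P4 TR against P4 KO or P4 TG. Against P4 WT, the list's median was -1.07 in P4 TR, -0.65 in P4 KO and -1.18 in P4 TG, and the direct medians were -0.37 for P4 TR minus P4 KO and 0.11 for P4 TR minus P4 TG. Hmgcs1 averaged 1121 ± 70.3 in P4 TR, 2518 ± 491 in P4 KO, 1123 ± 627 in P4 TG and 3586 ± 113 in P4 WT (SD, n = 3 each). Its difference of -1.15 ± 0.25 between P4 TR and P4 KO missed the threshold (adjusted p = 0.0626 by limma). S100b averaged 194 ± 42.2 in P4 TR, 448 ± 72.3 in P4 KO, 471 ± 229 in P4 TG and 767 ± 115 in P4 WT (SD, n = 3 each), a difference of -1.22 from P4 KO (adjusted p = 0.0639 by limma) and -1.20 from P4 TG (adjusted p = 0.0923). The lower genes that did differ from P4 KO were Evi5, by -0.74 (adjusted p = 0.0356), and Mterf2, by -0.93 (adjusted p = 0.0327), and both missed the threshold in 5 of the 6 fits without 1 array.

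Outside the genes called against P4 WT, Ctsc, the lysosomal cathepsin C, read 997, 804 and 964 in the P4 TR pools, against 146, 5.37 and 107 in the P4 KO pools. The difference was 3.28 ± 0.65 (adjusted p = 0.0314 by limma), while P4 TR and P4 WT differed by 0.85 (adjusted p = 0.98). The Ctsc call was lost in 5 of the 6 fits without 1 array, those without P4 KO pools 1, 2 and 3 and P4 TR pools 1 and 2 (adjusted p = 0.218 at most). Ccn3, a matricellular protein, read 808, 738 and 789 in P4 TR and 1569, 1838 and 1523 in P4 KO (-1.07 ± 0.18, adjusted p = 0.00773 by limma). In neither gene did the pools of P4 TR and P4 KO overlap, though Ccn3 missed the threshold without P4 KO pool 2 (adjusted p = 0.0725). The neural adhesion gene Ncam2 was lower in P4 TR than in P4 KO by 0.95 on the log2 scale, and Adk, adenosine kinase, by 1.23. Adk was at the floor in 2 of the P4 TR pools and differed by 0.003 between P4 TR and P4 WT. It was higher in P4 KO than in P4 WT by 1.23 (adjusted p = 1.65e-05 by limma). Ncam2 missed the threshold in 4 of the 6 fits without 1 array (adjusted p = 0.13 at most), and Adk in none. Snhg6, AI506816 and Mir686 were higher in P4 TR than in P4 KO, by 2.98, 2.95 and 2.56, and passed in all 6 fits. Against P4 WT they changed by -0.20, 0.22 and 0.34 in P4 TR and by -3.18, -2.73 and -2.22 in P4 KO. P4 KO pools were partly at the floor for Snhg6 and AI506816. Against P4 TG, the imprinted noncoding RNA Meg3 was higher by 2.29 (adjusted p = 0.0451 by limma) and Lifr, the receptor of leukemia inhibitory factor, by 0.72. Pkp2, a desmosome protein, was lower in P4 TR than in P4 TG by 1.24. All 3 P4 TR pools of Pkp2 were at the floor, and P4 TG exceeded P4 WT by 1.24 (adjusted p = 0.0166 by limma). Without 1 array, Meg3 missed the threshold in all 6 fits (adjusted p = 0.189 at most), and Lifr and Pkp2 in 5 of the 6 (adjusted p = 0.228 and 0.195 at most).

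**Figure D4:**
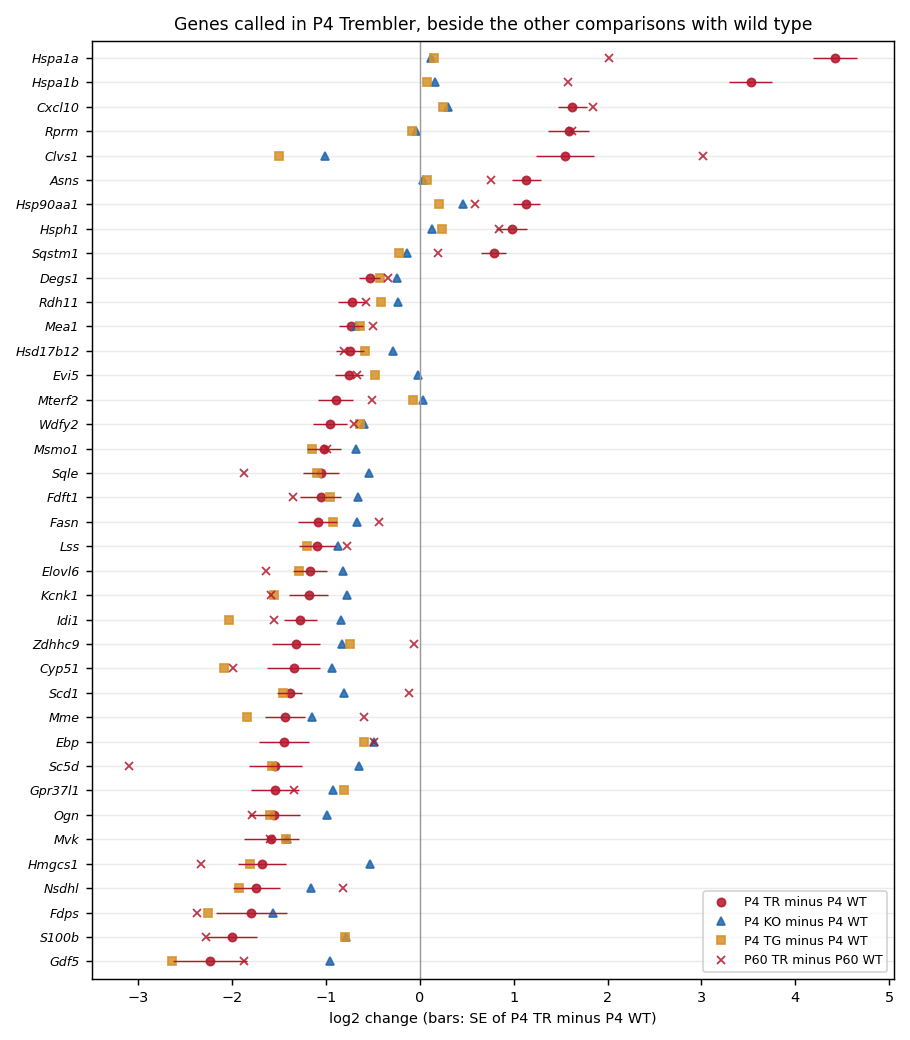
Log2 change of the 38 genes called in P4 TR minus P4 WT (red circles with SE), beside P4 KO minus P4 WT (triangles), P4 TG minus P4 WT (squares) and P60 TR minus P60 WT (crosses), with 1 called probe set per gene. Hspa1a stands at 4.42 in P4 TR, 0.12 in P4 KO, 0.15 in P4 TG and 2.01 at P60. The lower genes, from Gdf5 to Degs1, mostly lie left of 0 in all 4 comparisons, which share wild-type arrays at P4.

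The last comparison was of age. The P60 difference, P60 TR minus P60 WT, was set against the P4 difference in the same fit, and 62 probe sets were called (0.564%), 24 with a higher and 38 with a lower change at P60. With scan day as a fixed block the calls numbered 14, of which 3 were among the 62, and as a random block 98. All genes described below lost the call under the fixed block. Under it the difference rests on P60 TR pool 1, P60 WT pool 3, P4 TR pool 2 and P4 WT pool 2. Only 3 of the 62 were among the 48 called at P4. Hspa1a averaged 1876 ± 471 in P60 TR nerve (SD, n = 2), against 470 ± 137 in P60 WT (SD, n = 3). Its change of 2.01 at P60 was smaller than at P4 by 2.41 (SE 0.35, adjusted p = 0.00277 by limma), with Trembler means close at both ages and a P60 WT mean above that of P4 WT. Hspa1b followed the same pattern, with 3725 ± 708 in P60 TR (SD, n = 2) and 1248 ± 228 in P60 WT (SD, n = 3), and an age difference of -1.94 ± 0.34 (adjusted p = 0.00943 by limma). That call was lost without P60 TR pool 1 (adjusted p = 0.0626).

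Scd1 was the only gene called lower at P4 whose change also differed at P60. Its brightest probe set averaged 5039 ± 569 in P60 TR (SD, n = 2) and 5515 ± 1042 in P60 WT (SD, n = 3), a change of -0.12. The age difference was 1.27 ± 0.20 (adjusted p = 0.00384 by limma). The dimmer Scd1 probe set called at P4 missed the threshold, with an age difference of 1.44 ± 0.35 (adjusted p = 0.0837 by limma). The other fatty acid genes and the cholesterol genes called at P4 did not pass this test, and the cholesterol median was -1.25 at P60, against -1.07 at P4.

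Most of the 12 genes named for the largest age differences had small changes at P4. Pou3f1, a transcription factor of the promyelinating Schwann cell, read 980, 569 and 1270 in the P4 TR pools and 575, 635 and 1116 in the P4 WT pools, a change of 0.27. At P60 it read 916 and 1428 in the Trembler pools and 21.8, 130 and 37.6 in the wild-type pools, a change of 3.97. The wild-type level was high at P4 and low at P60, and the Trembler level was high at both. Csrp2, a LIM domain protein, had a change of 0.34 at P4 and 3.33 at P60, and Sox4, a transcription factor of immature cells, one of 0.09 at P4 and 2.46 at P60. Mki67, the proliferation marker Ki-67, changed by 0.17 at P4 and 2.91 at P60. It was lower at P60 in both genotypes, with 1294, 817 and 1690 in P4 TR and 959, 971 and 1335 in P4 WT, and at P60 753 and 356 in Trembler, against 75.3, 49.6 and 78.8 in wild type.

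Other genes were higher in wild type at P60 than at P4. Lox, the lysyl oxidase that crosslinks collagen, changed by 0.17 at P4 and -2.84 at P60. It read 660, 691 and 924 in P4 TR and 552, 712 and 753 in P4 WT, and at P60 536 and 199 in Trembler, against 2446, 2358 and 2215 in wild type. Frzb, a secreted Wnt antagonist, was at or below the floor in every pool of P4 TR, P4 WT and P60 TR, and read 356, 434 and 414 in P60 WT. Serpind1, the protease inhibitor heparin cofactor II, changed by -0.64 at P4 and -3.68 at P60. Without P60 TR pool 2 the age difference of Lox missed the threshold (adjusted p = 0.0683 by limma).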

How the data were processed

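RNA from sciatic nerve was measured on Affymetrix arrays, 12422 probe sets on 21 arrays. The deposited values are intensity on a linear scale. Per the labels' protocols they were normalized with a smoothing spline and summarised as a model-based expression index in dChip, whose version is not given in the sources used here. Here values under 54.7, the 20th percentile of all values, were raised to it, log2 was taken, and the 10994 probe sets above it on at least 2 arrays were tested (1428 were dim). The 8 group means were estimated together over the 21 arrays with limma 3.58.1 (R 4.3.3, 13 residual degrees of freedom, eBayes with an intensity trend), with Benjamini-Hochberg adjustment at 0.05, and the fit was tested on simulated data. Python 3.11.15 with pandas 2.3.3 made the summaries.

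The platform annotation gives 1 symbol for 10833 probe sets, several for 396 and none for 1193. A gene is represented in lists by its brightest probe set. The 25 lists hold 618 genes, 508 of them measured. Named genes are both Pmp22 probe sets, all called probe sets with 1 symbol and all measured genes of the cholesterol, heat shock and myelin lists. Up to 4 further members of other lists with the smallest p were added. Calls drawn from the 6 highest and 6 lowest of each further comparison were added too, though not all of them. The muscle, blood, macrophage and sex genes are given as measures of the pools. The members and lists were chosen with earlier results of these data known.

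Replicate numbers in the titles were checked as pairs. Deviations from the group means correlated at 0.193, 0.531 and 0.441 in pairs 1, 2 and 3, and lower between each pool and those of other numbers. Pair 2 shared a scan day. The replicate number was therefore also fitted as a block. Alternatives covered the floor, the filter on dim probe sets, scaling, the arrays in the fit, array weights, the variance prior, scan day and leaving out arrays. Promoter sequences are from RefSeq, GRCm38.p6, in which 31 of the 38 called genes have a window.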

Additional observations from a re-analysis of the deposited data

Results flagged for a closer look

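A set of 15 genes had a P60 change, Trembler minus wild type, that differed from the P4 change by the test of the difference itself. The difference, P60 minus P4 on the log2 scale, was positive for Pou3f1 (3.71), Csrp2 (2.99), Tyrp1 (2.82), Mki67 (2.74), Adam2 (2.60), Sox4 (2.37) and Scd1 (1.27). It was negative for Serpind1 (-3.04), Lox (-3.01), Fgf4 (-2.91), Frzb (-2.87), Cma2 (-2.60), Slc22a2 (-2.54), Hspa1a (-2.41) and Hspa1b (-1.94). Of these, 10 passed without any 1 of the 11 arrays. The other 5 were Tyrp1 (adjusted p = 0.117 at most by limma), Adam2 (0.138 at most), Cma2 (0.164 at most), Lox (0.0683 at most) and Hspa1b (0.0626 at most). With scan day as a fixed block all but Slc22a2 lost the call, and 3 of the 14 probe sets called under it were among the 62. P60 TR holds 2 arrays, and only P60 TR pool 1 shares a scan day with a P60 WT array.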

How the results depend on the processing

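None of the 43 called probe sets with a single symbol changed sign in any alternative, nor did those tabulated for the further comparisons. For the 43 this largely follows from the lack of overlap between the P4 TR and P4 WT arrays, so it is no sign of robustness. Those tabulated for the further comparisons were in part also chosen for lack of overlap. The signs of the other named genes were not checked in this way. Calls of P4 TR minus P4 WT, 48, were 16 to 80 without 1 array, 6 with only the groups compared (726 at an unadjusted p under 0.05), 21 with P4 arrays only and 16 with a fixed scan-day block. The cholesterol calls, 10, were 2 to 10 without 1 array, 1 with only the groups compared, 1 with P4 arrays only and 0 with the fixed block. The heat shock calls, 4, were 2 with only the groups compared. With the fixed block the difference between P4 TR and P4 WT is that of pool 2 alone.

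Against P4 KO, 45 calls became 6 with only the groups compared, 6 with the fixed block and 20 to 164 without 1 array. Against P4 TG, 16 became 10 when 3 of 6 arrays had to exceed the floor, 34 with quantile scaling, 2 with only the groups compared, 44 with array weights, 3 with the fixed block and 10 to 81 without 1 array. The 62 age differences became 34 with that filter, 14 with the fixed block and 98 with scan day as a random block.

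With the replicate block on all arrays there were 47 calls (9 cholesterol, 4 heat shock), 50 against P4 KO, 30 against P4 TG and 69 for age. It ended the calls of Degs1, Rdh11, Cyp51 and Fdps and of no other of the 43 named probe sets.

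Some alternatives were chosen after seeing the data. Without the 2 arrays of the shared scan day 10 were called, 1 of them a cholesterol gene. With the replicate block in the P4 TR and P4 WT arrays alone limma called 0, and 0 in both lists, with 1073 probe sets at an unadjusted p under 0.05. That fit has few residual degrees of freedom by its construction.

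Several alternatives, such as P4 arrays only, alter only the estimated spread and cannot move a median. List medians moved less than the counts of calls. They were -1.25 to -1.04 for cholesterol, -0.67 to -0.46 for fatty acids, -0.42 to -0.31 for myelin, 0.30 to 0.48 for heat shock, 0.09 to 0.19 for the amino acid response and -0.15 to 0.13 for endoplasmic reticulum stress. The cause of the other shifts was not tested. Values at the floor give only a bound on the change.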
